A study of Mus musculus with 3 samples.

Results

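The genes described here encode 5 families of DNA-binding developmental regulators: forkhead (Fox), Zic, T-box (Tbx), Six-type homeobox and Twist factors. They were taken by symbol from the count table, as every gene with a symbol of the form Foxc1, Zic1, Tbx15, Six2 or Twist1, which gave 70 of 46983 gene rows. All 70 are protein-coding in GENCODE M21, the annotation of GRCm38 (mm10), and all 70 were matched there by identifier under the same symbol. The samples were 3 libraries of leptomeningeal cells, the cells of the thin inner brain membranes, dissected and enriched by flow cytometry as a pia-rich fraction from mice given vehicle. All libraries form that 1 group, numbered 1 to 3 as in the labels, with no genotype, strain, age, sex or purpose of the vehicle stated and no other group to compare. Nothing in the labels says that the libraries came from separate mice, so the spread between these samples may be in part technical. The p-values below ask whether a gene varied more between these libraries than genes of like abundance did.

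Leptomeningeal fibroblasts arise from head mesenchyme of neural crest and mesodermal origin, and members of all these families act in that mesenchyme. Foxc1 is required in mice for the meninges and the overlying skull to form, and Zic factors are expressed in the meninges and in dorsal neural tissue. Other members of the same families instruct organs outside the head or neurons, ciliated cells and immune cells, so a family can hold factors of many lineages.

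The libraries held 21002860, 28704952 and 25338616 gene counts. Levels are counts per 1000000 (CPM) on scaled library sizes, where a count of 0 allows up to 3 counts, or 0.152, 0.101 and 0.116 CPM in libraries 1, 2 and 3. These floors cover counting error only, because PCR copies could not be told from separate molecules. Library 1 stood apart: its ratio to the others followed the GC content of genes (Spearman 0.605 across 14375 genes, with genes no independent replicates), while Xist was at 35.7 CPM there against 0.202 and 0.733 CPM in libraries 2 and 3. Ddx3y was at 19.9 CPM in library 1 against 175 and 129 CPM. Library 1 thus differed from the others in both of these sex-linked transcripts, and held both. The summed level of 5 choroid plexus markers was 78.3 CPM in library 1 against 1632 and 2373 CPM, and that of 5 macrophage and microglia markers 7.12 against 145 and 444 CPM. Most of the choroid plexus sum was Enpp2, at 41.7, 1503 and 2237 CPM in libraries 1, 2 and 3. Clic6, Kl, Folr1 and Otx2 were also lowest in library 1, with the smallest gap for Otx2 (17.8, 35.7 and 30.8 CPM). The 5 fibroblast markers checked were abundant in every library, with a summed level of 21313 to 24784 CPM. Of 7 leptomeningeal fibroblast markers 6 were at 1 CPM or more in every library, the exception being Lama1. These are bulk samples, so fewer cells of a type and less RNA per cell cannot be told apart.

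The families held abundant genes beside genes with no count at all. A gene is called expressed here when it was at 1 CPM or more in every library, silent when it had at most 3 counts in every library, and low otherwise. By this rule 34 of the 70 were expressed (48.6%), 15 were low (21.4%) and 21 were silent (30.0%). Over all protein-coding gene rows the shares were 56.0% expressed, 17.9% low and 26.1% silent, and over all gene rows 27.3%, 17.1% and 55.6%. The share of expressed members is thus near that of protein-coding genes, and what follows describes which members they were. All 5 Zic and both Twist genes were expressed, against 4 of 6 Six-type, 19 of 44 Fox and 4 of 13 Tbx genes. The members took 0.105%, 0.147% and 0.109% of gene counts in libraries 1, 2 and 3, and 3 of them, Foxp1, Foxp2 and Zic4, held 43.6%, 45.5% and 41.6% of those member counts.

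**Figure D1:**
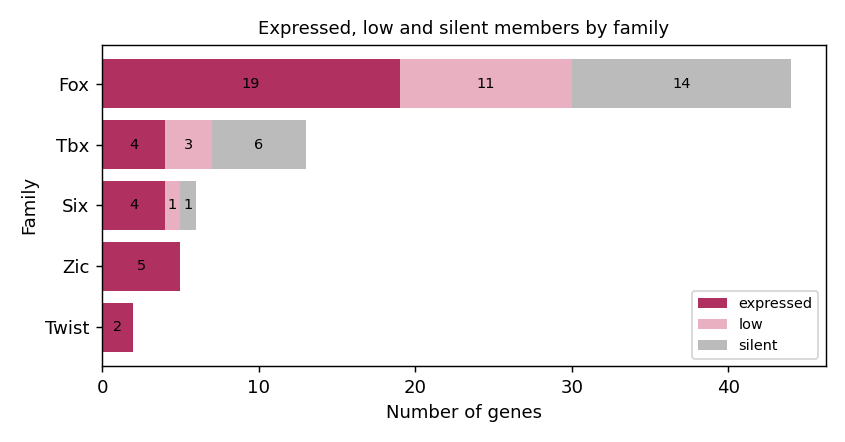
Number of genes (horizontal axis) in each family (vertical axis) that were expressed, low or silent, drawn as stacked bars with the count in each segment. The Zic and Twist bars hold expressed genes only, whereas 14 of 44 Fox genes and 6 of 13 Tbx genes were silent.

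A list of 18 meningeal and head mesenchyme factors had 16 expressed, 2 low and 0 silent members. A second list of 12 factors with broad expression had 12 of 12 expressed. Of the 40 members on neither list, 6 were expressed, 13 low and 21 silent. Over all 70 members 48.6% were expressed, and over protein-coding gene rows 56.0%. Both lists were written from general knowledge, but with earlier results of these data known. The counts and levels by list are therefore descriptions and no test. Near the 1 CPM threshold, the lowest library was at 1.08 CPM for Foxl1 and 1.38 CPM for Foxo4, the expressed members nearest the threshold, and at 0.347 CPM for Foxf2 and 0.303 CPM for Foxp3, the nearest below it.

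Levels of different genes were compared per kilobase of exon, with all annotated exons of a gene joined over its transcripts. Annotated exons that the cells did not use lower the level of a gene per kilobase, and how far was not tested. On that scale the expressed members reached 22.0 CPM per kilobase, with a median of 4.04 against 4.66 for all 12781 expressed genes of known length. Above that all-gene median lay 12 of 16 expressed genes of the meningeal list, 3 of 12 of the broad list and 1 of 6 on neither list, which was Foxp2. The medians of the 3 sets were 6.52, 2.79 and 0.897 CPM per kilobase. The order among single genes is a description, because the same 3 libraries set it. Of 33 neighbouring pairs in the order, 6 kept their order in 3 of 3 libraries with a mean log2 difference above its SD. These 6 pairs are called apart. Genes of equal level can also pass this rule at n = 3, and how many would do so was not tested. The highest member, Tbx15, was not apart from Six2 (log2 difference 0.26 ± 0.47, SD, n = 3), nor Six2 from Foxs1 or Foxs1 from Zic4. Zic1 was apart from Foxc2 (0.52 ± 0.15), and lower in the order Foxk2 was apart from Six5 (0.39 ± 0.15). The same 10 genes were highest without library 1, and the largest shift of any rank was 5 places.

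**Figure D2:**
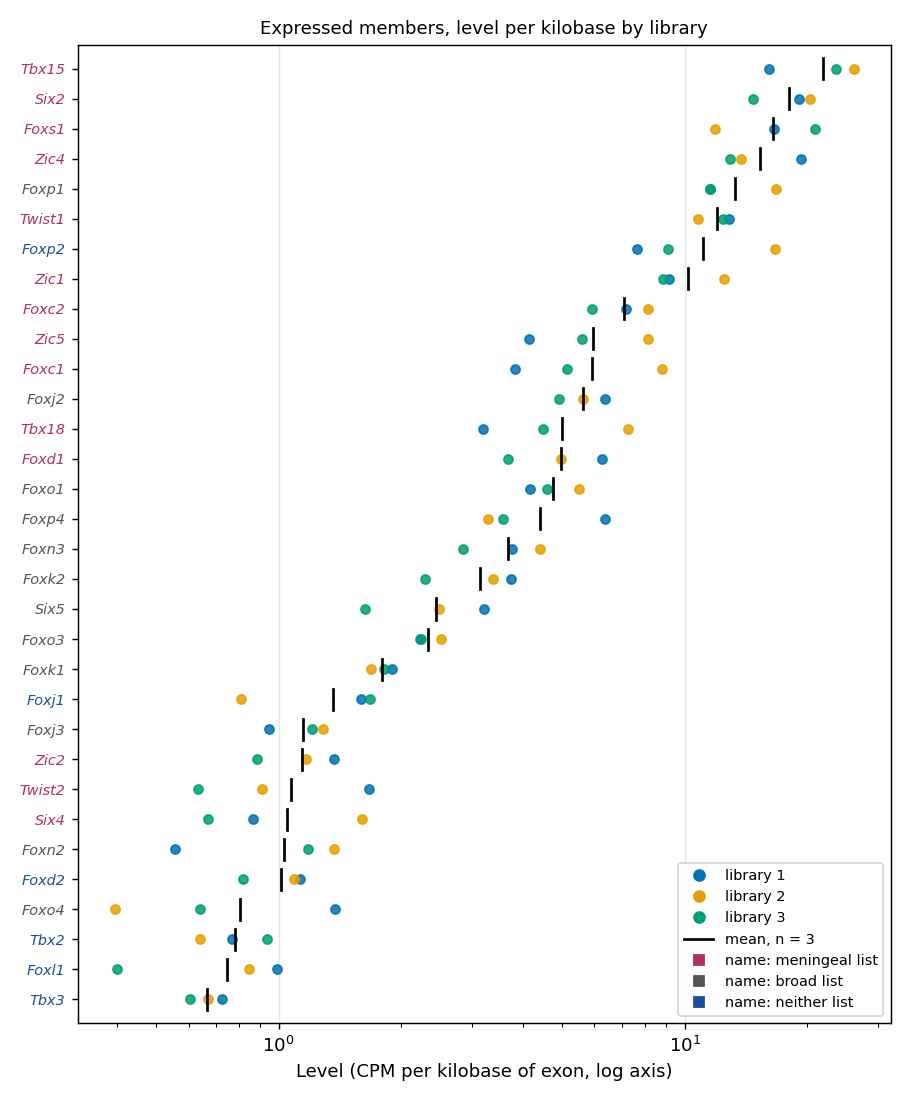
Level per kilobase of exon (CPM per kilobase, log axis) of expressed members, 1 row per gene, with a point per library, a black bar at the mean (n = 3) and the gene name coloured by list. Tbx15 is highest at 22.0 CPM per kilobase, and the points of most neighbouring genes overlap.

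The Zic genes encode zinc-finger relatives of the Gli factors. Zic4 was the most abundant, at 200, 143 and 134 CPM in libraries 1, 2 and 3 (159 ± 35.9, SD, n = 3). Its partner Zic1, which lies beside it in the genome and is needed with it for normal cerebellar growth, was at 52.1, 71.2 and 50.4 CPM. Zic5 was at 20.3, 39.7 and 27.4 CPM. These 3 genes were high in every library and did not overlap in CPM. Zic2, mutated in holoprosencephaly, was at 3.94, 3.36 and 2.54 CPM, far below the others named here in all libraries. Per kilobase, Zic4 exceeded Zic1 by 1.56 ± 0.51 times, in 3 of 3 libraries, with the largest ratio in library 1 (2.12) and the smallest in library 2 (1.102). Zic5 stood 5.44 ± 2.11 times above Zic2, in 3 of 3 libraries. Zic4 made up 46.5% ± 9.1 of the per-kilobase level of the family, Zic1 30.7% ± 4.0 and Zic5 17.98% ± 5.4.

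The Fox genes of the meningeal list came next. Foxc1 was at 22.3, 51.4 and 30.0 CPM (34.6 ± 15.1) and its close paralogue Foxc2, which also acts in lymphatic and mesenchymal development, at 19.6, 22.1 and 16.2 CPM (19.3 ± 2.99). Foxc1 was highest in library 2 and its range overlapped that of Foxd1, whereas Foxc2 varied less. Foxc2 was higher than Foxc1 per kilobase in 2 of 3 libraries (ratio 1.32 ± 0.50), so the pair was not resolved. Foxd1, a marker of stromal progenitors and of the mesenchyme around the forebrain, was at 31.7, 25.1 and 18.6 CPM. Foxs1, found in neural crest derivatives and perivascular cells, was at 21.7, 15.6 and 27.5 CPM. With a short transcript of 1.31 kb, Foxs1 ranked the third per kilobase, at 16.5 ± 4.55 CPM per kilobase. It was highest in library 3 and lowest in library 2, as was the summed level of 5 mural cell markers (2375, 2154 and 3507 CPM in libraries 1, 2 and 3). Of that sum Acta2 held 1376, 1154 and 2342 CPM. Cspg4 followed the same order, whereas Pdgfrb was lowest in library 3, and Rgs5 and Kcnj8 were lowest in library 1. The part of mural cells in the level of Foxs1 was not tested. Foxf1 and Foxf2, mesenchymal forkheads of the gut, lung and brain pericytes, were low. Foxf2 had 7, 22 and 9 counts and Foxf1 4, 5 and 8 counts, while all 5 mural markers were expressed. Per kilobase Foxc1 stood 29.5 ± 4.85 times above Foxf2.

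Among T-box genes Tbx15, which acts in skeletal and dermal mesenchyme, dominated with 60.6, 97.8 and 88.6 CPM (82.3 ± 19.4). Tbx18, a factor of mural cells and of mesenchyme around developing organs, was at 15.1, 34.2 and 21.2 CPM (23.5 ± 9.78). Both were lowest in library 1 and highest in library 2, and they did not overlap. Tbx15 made up 77.5% ± 2.2 of the family's level per kilobase and Tbx18 17.1% ± 3.3. An annotated gene on the opposite strand, with 3, 11 and 4 counts of its own, covers 20.6% of the exon length of Tbx18. Where counting ignores strand, reads there can be left out as ambiguous, so the level and share of Tbx18 are uncertain. The paired repressors Tbx2 and Tbx3, known from limb, heart and epithelial development, were at 2.83 ± 0.54 and 4.42 ± 0.40 CPM, with Tbx3 higher in every library, whereas per kilobase Tbx3 was higher in 1 of 3 libraries. Tbx6, a factor of presomitic mesoderm, had 21, 32 and 6 counts, and was below 1 CPM in library 3 alone.

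The Six-type homeodomain proteins act with Eya coactivators. Six2, known from head mesenchyme and the cells that form nephrons, was at 40.5, 43.3 and 31.3 CPM (38.4 ± 6.27). Six4 was at 9.40, 17.4 and 7.29 CPM and Six5, which is expressed in many tissues, at 9.65, 7.46 and 4.90 CPM. Six2 stood 7.75 ± 1.61 times above Six5 per kilobase, in 3 of 3 libraries. The forebrain and eye factors Six3 and Six6 were low and silent: Six3 had 0, 29 and 16 counts, and Six6 had none in any library.

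Twist1, a basic helix-loop-helix factor of head mesenchyme and skull sutures, was among the steadiest members at 20.97, 17.6 and 20.2 CPM (19.6 ± 1.79). Twist2, its dermal paralogue, was at 5.30, 2.89 and 2.01 CPM. Twist1 stood 13.1 ± 6.08 times above Twist2 per kilobase, in 3 of 3 libraries. An annotated gene on the opposite strand covers 46.5% of the exon length of Twist2. Its own counts were 10, 10 and 43, and reads from both strands cannot be told apart where counting ignores strand, which was not stated.

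Foxp1 and Foxp2, forkhead repressors, had the highest mean CPM of all members. Foxp1, on the broad list, was at 159, 232 and 159 CPM (183 ± 41.8). Foxp2, on neither list and best known for its role in vocal learning and motor circuits, was at 125, 273 and 148 CPM (182 ± 79.6). Foxp1 was higher per kilobase in 3 of 3 libraries, by 1.27 ± 0.25 times, and in library 2 the ratio was 1.01. Foxp4 was at 31.4, 16.2 and 17.6 CPM, highest in library 1. The Foxo factors, which insulin signalling excludes from the nucleus, were ordered Foxo1 (41.1 ± 5.97 CPM), Foxo3 (17.7 ± 1.21 CPM) and Foxo4 (2.80 ± 1.78 CPM). Per kilobase Foxo1 stood 2.03 ± 0.16 times above Foxo3, in 3 of 3 libraries, and 8.02 ± 5.50 times above Foxo4. The ratio to Foxo4 ran from 3.01 in library 1 to 13.9 in library 2. Foxn3 was at 42.2 ± 9.03 CPM, Foxj2 at 30.1 ± 3.88 CPM, Foxk2 at 16.5 ± 3.97 CPM, Foxk1 at 13.7 ± 0.80 CPM, Foxj3 at 12.6 ± 1.95 CPM and Foxn2 at 7.61 ± 3.12 CPM. Of these, Foxn2 had the widest relative spread, with library 1 at 4.09 CPM against 10.0 and 8.68 CPM. On neither list, Foxd2 was at 2.62 ± 0.44 CPM, and Foxl1, a factor of mesenchyme under epithelia, at 2.68, 2.29 and 1.08 CPM.

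Some members are known as markers of other cell types. Foxj1, the regulator of motile cilia in ependymal and other ciliated cells, was expressed at 4.19, 2.12 and 4.40 CPM, while 2 of 5 ependymal markers were expressed and the summed level of the 5 was 25.3 to 39.7 CPM. Of that sum Mia held 36.3, 13.8 and 26.5 CPM and Rsph1 2.58, 9.85 and 7.98 CPM, while Dynlrb2 reached 1.97 CPM and Ccdc153 and Tmem212 at most 0.354 CPM. The part of ciliated cells in the Foxj1 level was not tested. Foxm1, which drives mitotic genes, had 3, 54 and 32 counts (0.152, 1.81 and 1.23 CPM) and was lowest in library 1, where the summed level of 5 proliferation markers was 5.25 CPM against 33.5 and 30.9 CPM in libraries 2 and 3. The part of dividing cells was not tested. Foxd3, a factor of neural crest and its glial lineage, had 7, 4 and 33 counts and was highest in library 3, where the 5 Schwann cell markers summed to 3061 CPM against 1942 and 1855 CPM; the part of Schwann cells was not tested. Foxp3, which defines regulatory T cells, had 6, 12 and 8 counts, and Tbx21, which defines T helper 1 and natural killer cells, had 10, 0 and 1. The T cell marker Cd3e had 12, 0 and 7 counts, and Cd3d was silent. The part of T cells was not tested. Exons of 4 annotated genes overlap those of Foxp3, so its counts are uncertain.

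The 21 silent members had 2, 11 and 6 counts together in libraries 1, 2 and 3, and 12 of them had no count in any library. The latter were Foxa2, Foxb1, Foxb2, Foxe1, Foxi1, Foxi2, Foxi3, Foxn1, Foxr2, Six6, Tbx4 and Tbx20. They include factors of endoderm (Foxa2), thyroid (Foxe1), inner ear (Foxi1), thymic epithelium (Foxn1), eye (Six6), hindlimb (Tbx4) and heart (Tbx20). The other 9 silent members were Foxa1, Foxd4, Foxe3, Foxl2, Foxn4, Tbx1, Tbx5, Tbx10 and Tbx19, with at most 3 counts in any library. For the members without a count, levels up to the floors given above are allowed. Other low members were Foxa3, with 3, 10 and 14 counts, Foxh1 with 10, 9 and 0, Foxo6 with 8, 3 and 1, Foxq1 with 0, 6 and 1, Foxr1 with 3, 0 and 6, and Tbx22 with 6, 0 and 5. An annotated gene on the opposite strand, itself without a count, covers 66.1% of the exon length of Foxq1. Where counting ignores strand, reads there can be left out as ambiguous, so the counts of Foxq1 are uncertain.

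Some members lie near each other in the genome, mostly within a family. Within 200 kb of each other, a distance chosen after values had been seen, lay 15 pairs formed by 23 members, with Foxa3 and Six5 on chromosome 7 the pair from different families. In 10 pairs 1 gene was expressed and the other was not, in 4 both were, and in 1 neither was. With 48.6% of all members expressed, mixed pairs are frequent in any pairing, and some members recur among the pairs. How neighbouring genes split over the whole table was not tested, so the pairs below are descriptions. On chromosome 13, Foxq1 (0.0801 CPM), Foxf2 (0.480 CPM) and Foxc1 (34.6 CPM) follow each other from 31556134 to 31812476. The level of Foxq1 is uncertain because of the overlapping gene named above. On chromosome 8, Foxf1 (0.226 CPM) precedes Foxc2 (19.3 CPM) and Foxl1 (2.01 CPM) between 121084386 and 121130644. On chromosome 12, Six6, without a count, lies 155 kb from expressed Six4. On chromosome 17, Six3 lies 55.0 kb from Six2 and was at 0.530 CPM against 38.4 CPM. The T-box pairs split alike, with Tbx2 expressed and Tbx4 without a count on chromosome 11, and Tbx3 expressed and Tbx5 with 1 count in all on chromosome 5. Foxd2 and Foxe3, 16.3 kb apart on chromosome 4, were at 2.62 and 0.0112 CPM. Both Zic pairs were instead expressed together, Zic1 with Zic4 on chromosome 9, where the genes overlap on opposite strands, and Zic5 with Zic2, 9.76 kb apart on chromosome 14.

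**Figure D3:**
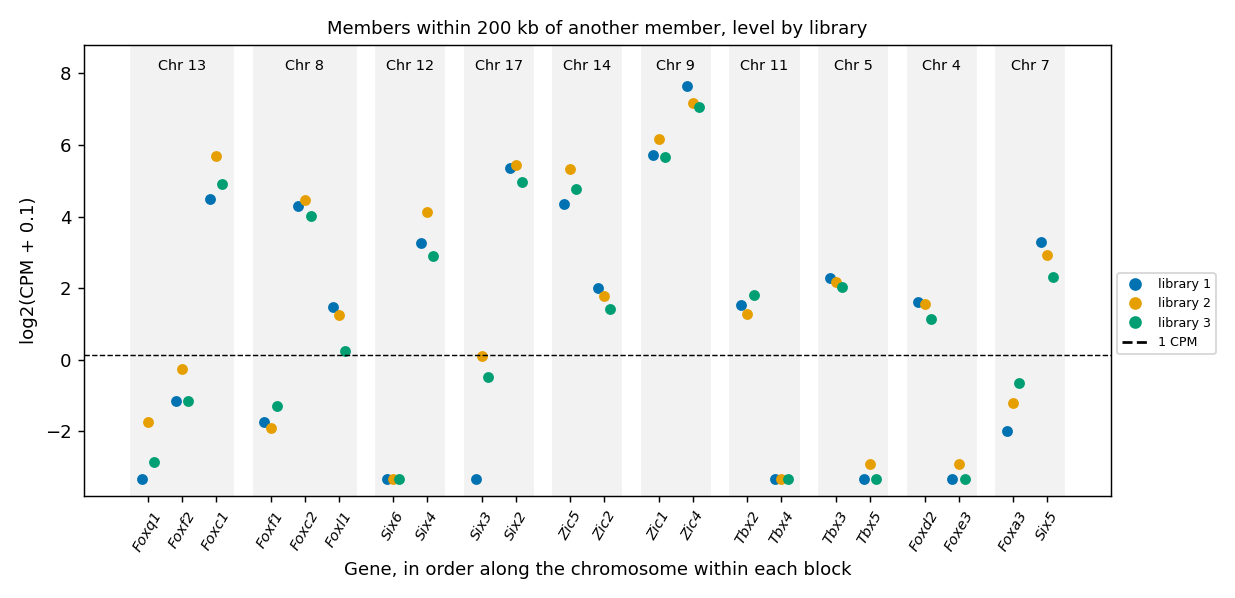
Level (log2 of CPM + 0.1, vertical axis) of members that lie within 200 kb of another member, in blocks by chromosome and in chromosomal order, with a point per library and a dashed line at 1 CPM. Silent Six6, Tbx4, Tbx5 and Foxe3 sit at the foot of the plot beside expressed neighbours, while both Zic pairs lie above the line in every library.

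Promoters are shown for 3 of the 10 neighbouring pairs that set an expressed gene beside a low or silent one. These 3 pairs were chosen after values had been seen. The sequences are from RefSeq on GRCm38.p6, 5′ to 3′ on the strand of the gene, and cover up to 250 bases before the annotated start, ending earlier where a GENCODE M21 exon begins. Capitals mark CG dinucleotides, the sites of DNA methylation. The stretches are chr13:31806396-31806632 (plus strand) for Foxc1, chr13:31625566-31625815 (plus) for Foxf2, chr17:85688275-85688504 (minus) for Six2, chr17:85620584-85620833 (plus) for Six3, chr4:114908899-114909148 (minus) for Foxd2 and chr4:114926068-114926317 (minus) for Foxe3.
Foxc1: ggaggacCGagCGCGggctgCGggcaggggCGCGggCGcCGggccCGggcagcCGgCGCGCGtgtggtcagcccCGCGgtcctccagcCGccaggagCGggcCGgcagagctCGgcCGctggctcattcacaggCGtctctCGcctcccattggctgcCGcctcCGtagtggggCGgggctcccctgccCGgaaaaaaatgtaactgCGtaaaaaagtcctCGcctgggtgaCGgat
Foxf2: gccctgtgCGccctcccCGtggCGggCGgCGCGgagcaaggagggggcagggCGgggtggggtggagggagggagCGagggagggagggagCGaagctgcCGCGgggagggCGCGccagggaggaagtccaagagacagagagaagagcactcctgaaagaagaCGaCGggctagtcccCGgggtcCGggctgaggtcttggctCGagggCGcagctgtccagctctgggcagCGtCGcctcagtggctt
Six2: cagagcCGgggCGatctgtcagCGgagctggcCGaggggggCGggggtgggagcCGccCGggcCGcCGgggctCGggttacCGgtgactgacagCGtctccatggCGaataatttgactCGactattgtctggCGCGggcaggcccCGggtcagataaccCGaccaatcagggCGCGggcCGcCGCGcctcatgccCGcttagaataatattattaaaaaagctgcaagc
Six3: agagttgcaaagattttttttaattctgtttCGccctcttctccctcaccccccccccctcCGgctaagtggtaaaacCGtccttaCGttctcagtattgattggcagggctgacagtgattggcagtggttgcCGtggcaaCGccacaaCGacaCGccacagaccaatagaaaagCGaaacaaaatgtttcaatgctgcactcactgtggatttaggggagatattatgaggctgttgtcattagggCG
Foxd2: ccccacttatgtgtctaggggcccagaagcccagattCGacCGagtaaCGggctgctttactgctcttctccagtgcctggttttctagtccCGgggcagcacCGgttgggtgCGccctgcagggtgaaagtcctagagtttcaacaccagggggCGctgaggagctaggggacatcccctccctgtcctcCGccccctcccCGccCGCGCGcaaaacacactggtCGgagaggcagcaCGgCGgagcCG
Foxe3: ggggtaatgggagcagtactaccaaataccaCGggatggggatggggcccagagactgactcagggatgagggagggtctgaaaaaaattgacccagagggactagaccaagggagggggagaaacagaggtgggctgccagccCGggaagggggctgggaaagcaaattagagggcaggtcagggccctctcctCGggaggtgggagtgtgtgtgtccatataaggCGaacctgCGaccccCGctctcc
In each of these 3 pairs the expressed gene had more CG dinucleotides in the printed stretch: Foxc1 29 and Foxf2 21, Six2 24 and Six3 10, Foxd2 16 and Foxe3 6. Low Foxf2 had more than expressed Foxd2. All other such pairs with a window of 300 bases for both genes went the other way, so the printed pairs do not stand for the rest. These had 20 in silent Six6 against 16 in expressed Six4 and 22 in low Foxa3 against 17 in expressed Six5.

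Promoter windows of 300 bases, 250 before to 50 after the start, were matched for 47 of the 70 members. Expressed members without a window include Tbx15, Foxs1, Foxp2 and Foxc2. The median number of CG dinucleotides was 26.5 in 20 expressed members, 16 in 9 low members and 11 in 18 silent members, against 7 over the 27025 genes of the table. Those genes were not split by class or by type of gene, so whether expressed genes at large differ alike was not tested. The classes overlapped, with 6 to 59 in expressed and 3 to 31 in silent members. Foxk2 had the most, with 59, and expressed Foxn3 only 6 and Zic4 only 8, at the first start listed for each gene. Silent Foxi3 had 31 and Foxl2 27. On either strand, the forkhead motif GTAAACA was found in 1 of 47 windows, that of Foxa1, against 3.55% of all windows, and the TATA box TATAAA in 5 of 47 (10.6%) against 14.2%. The T-box motif AGGTGTGA was in 0 of 47 windows against 1.27%. The CCAAT box, searched as CCAAT, was in 23 of 47 windows (48.9%) against 37.9%, in 9 of 20 expressed and 9 of 18 silent members. A match describes the letters of the window only.

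The libraries could be compared gene by gene only as replicates, with edgeR's goodness-of-fit test across all genes. The test asks whether a gene varied more than the spread fitted to genes of like abundance in the same 3 libraries. That fitted spread is thus part of the baseline, and its common value over all genes, as a coefficient of variation, was 0.372. Past the filter on low counts were 34 members, the same genes that were called expressed. The test called 0 of these 34 variable between libraries after Benjamini-Hochberg adjustment, against 0.437% of all 14409 genes tested, and the lowest adjusted p among members in edgeR was 0.967, for Foxp2. At an unadjusted p below 0.05 it found 0 members and 7.04% of all genes. That no member passed does not show that levels were equal. The coefficient of variation of expressed members ranged from 5.88% for Foxk1 to 63.5% for Foxo4, with a median of 22.7% against 26.2% over all 12806 expressed genes. Library 2 was highest for 17 of the 34 members and library 3 for 3, and library 3 was lowest for 16.

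The spread among members moved with base composition in library 1. On a log2 scale, the level in library 1 over the mean of the other libraries ran from -1.099 for Foxn2 (GC content 41.2%) to 1.23 for Foxo4 (55.2%). It was below 0 in 13 of the 17 members with a GC content under the members' median of 53.7%, and above 0 in 15 of the 17 others. The median ratio was -0.27 in the first set and 0.22 in the second. Across the 34 members the Spearman coefficient with GC content was 0.566, a description of genes that share the same 3 libraries. With the GC content and length trends of all genes removed, it was -0.33, and the medians were 0.13 and -0.16. Foxc1, with a GC content of 55.9%, went against the trend, at -0.80 as measured and -1.18 with the trends removed. Zic4 did so in the other direction, with 0.53 at a GC content of 47.4%, and 0.81 with the trends removed. Ratios of paralogues that differ in GC content, such as Foxp4 (63.4%) to Foxp1 (44.9%), differed in library 1: Foxp1 exceeded Foxp4 per kilobase by 1.82 times in library 1 and by 5.12 and 3.24 times in libraries 2 and 3.

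**Figure D4:**
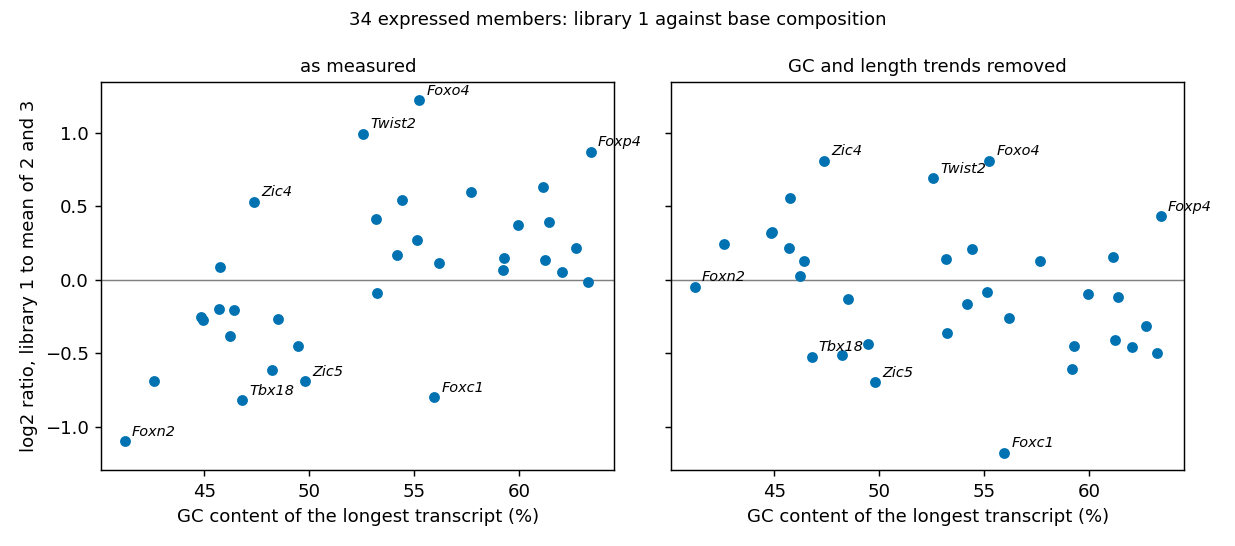
Level in library 1 over the mean of the other libraries (log2 ratio, vertical axis) against GC content of the longest transcript in percent (horizontal axis), 1 point per expressed member, as measured (left) and with GC content and length trends removed (right). On the left the ratio is -1.099 for Foxn2 at the lowest GC content and 0.87 for Foxp4 at the highest, and Foxc1 lies below the other members of its GC content in both panels.

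Genes that work with these factors were taken from lists written from general knowledge, with earlier results of these data known. Their counts are to be read against the 56.0% of protein-coding gene rows that were expressed. Of 6 cofactors of Six-type proteins, Eya2 (144 ± 24.8 CPM), Eya1 (24.5 ± 8.01 CPM) and Eya3 were expressed, and Eya4, Dach1 and Dach2 were low. Of 9 partners and inhibitors of Twist proteins 7 were expressed, led by Id3 (2303 ± 779 CPM) and Id2 (1814 ± 653 CPM), which sequester the E proteins that Twist factors pair with. The E protein genes Tcf4, Tcf12 and Tcf3 were all expressed, and Hand2 had no count. Among the Gli-like relatives of Zic genes 5 of 6 were expressed, with Glis2 at 75.4 ± 27.0 CPM and Gli3 at 13.6 ± 2.73 CPM. Of T-box genes named outside the pattern Mga was at 62.2 ± 32.1 CPM, Tbr1 was low, and T and Eomes had no count. Of 23 other mesenchymal factors 21 were expressed, led by Prrx1 (339 ± 61.7 CPM) and Msx1 (111 ± 27.1 CPM). The test between libraries called 0 of the 40 genes of these 5 lists that it covered, against 0.437% of all genes.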

How the data were processed

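The series deposited counts per gene for 3 libraries, whole numbers with no normalization. HTSeq 0.5.3, DESeq2 1.22.1 and the build mm10 are named in the submitters' processing notes, without their roles; the aligner, annotation and strand setting are not given in the sources used here. The 5 rows of reads assigned to no gene, 39.1% to 45.6% of each library, were left out. The 3 libraries held 21002860 to 28704952 gene counts. Low genes were removed by filterByExpr (minimum count 10) and sizes scaled by TMM (edgeR 4.0.16, R 4.3.3). With 1 group, the quasi-likelihood test has no contrast, so libraries were compared by the goodness-of-fit test of edgeR with its trended dispersion and Benjamini-Hochberg adjustment at 0.05, checked on simulated data. Exon length, joined over all transcripts of a gene, and GC content are from GENCODE M21. Log2 ratios used CPM + 0.5. Expressed members and all genes of the meningeal list were named, with the 2 most abundant genes of each other list; values of some members are not reported here. The members and lists were chosen with earlier results of these data known; the 200 kb distance, the paralogue pairs and the printed promoters were chosen after values had been seen. Alternatives were other size factors, filters, thresholds and dispersions, removal of lowess trends with GC content and length, and leaving out each library.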

Additional observations from a re-analysis of the deposited data

Results flagged for a closer look

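Some reads lie outside the gene values compared, at levels beyond the limit for a count of 0. Averaged over the 3 libraries, unaligned reads made up 14.7% of all reads and reads with several alignments 16.5%. Another 8.89% fell outside annotated genes, and 1.35% fell on overlapping genes. How many of them belong to loci of these factors was not tested.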

How the results depend on the processing

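The count of 34 expressed members was 34 with DESeq2 size factors, plain totals or a threshold of 0.5 CPM, 31 at 2 CPM, and 22 at 1 CPM per kilobase of exon, which lowers long genes. Leaving out each replicate gave 34 to 35, with Foxm1 added without library 1 and Tbx6 without library 3. The count of 0 variable members held under all 9 alternatives, with 0 to 2 members at an unadjusted p below 0.05 and a lowest adjusted p of 0.342 in edgeR, with trends removed; all genes gave 63 calls, 138 with no filter, 111 with trends removed, 186 with a mean count of at least 10, chosen after seeing the data, and 12 to 28 without 1 library. The 6 neighbouring pairs called apart in the order of levels were 9 with trends removed and 6 to 8 without 1 library. Both alternatives were chosen after seeing the data. Over expressed members the level in library 1 against the others had a median log2 ratio of 0.0758, which reversed to -0.0905 with the trends removed. With DESeq2 size factors or plain totals, the mean log2 level of each expressed or meningeal-list member moved by less than 1 SD. No paired analysis was possible because all libraries belong to 1 group.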
